A study of Mus musculus with 721 samples.

Results

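Cubn, Amn, Lrp2, Dab2 and Lrpap1 are 5 genes of receptor-mediated endocytosis in the endoderm of the early mouse embryo. They were chosen by symbol, and each of the 5 symbols has 1 row among the 24483 gene rows of the count table. The table holds 721 libraries of full-length cDNA, called cells here, picked by hand from wild-type mouse embryos of the C57Bl/6Babr strain. Of these, 128 are labelled as double wells, which hold more than one cell. It covers 99 cells of the inner cell mass at E3.5, 105 E4.5 cells, 267 E5.5 cells and 250 E6.5 cells, the last with some titled E6.75. Embryos of both E3.5 and E4.5 were freed of trophoblast by immunosurgery. Total counts ran from 187196 to 1442116 per E3.5 cell, from 182338 to 2089903 per E4.5 cell, from 120148 to 2347590 per E5.5 cell and from 66896 to 3792936 per E6.5 cell. No cell carries a treatment or a genetic change, so the comparisons are of stages and of cell classes.

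Cubilin, the product of Cubn, is a large membrane-bound receptor without a membrane-spanning segment. It works together with amnionless, the product of Amn, which anchors it and carries it to the cell surface as the cubam complex. Megalin, the product of Lrp2, is a giant member of the low-density lipoprotein (LDL) receptor family that takes up many of the same ligands. Dab2 is an adaptor that links such receptors to clathrin coats, and Lrpap1, the receptor-associated protein, is a chaperone that keeps LDL receptor family members from binding ligand too early in the secretory pathway. The visceral endoderm, which derives from the primitive endoderm (PrE) of the late blastocyst, is an absorptive epithelium known for taking up maternal proteins and lipids with this machinery before the placenta works.

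Cell classes were not given by the labels, apart from 5 cells at E5.5 labelled as visceral endoderm, so they were rebuilt by clustering the cells of each stage with the 5 genes and their pathway lists held out. The clusters gave 76 PrE-like and 29 epiblast-like cells at E4.5, 6 endoderm-like and 261 epiblast-like cells at E5.5, and 40 endoderm-like, 187 epiblast-like and 23 streak-like cells at E6.5. The names rested on markers that do not include the 5 genes. The summed level of 18 endoderm markers was 10082 to 14602 CPM (counts per 1000000 counts) in the PrE-like sums and 289 to 1693 CPM in the E4.5 epiblast-like sums. At E6.5 it was 6252 to 13958 CPM in the endoderm-like sums and 369 to 4327 CPM in the epiblast-like sums. All 18 endoderm markers had a count in the PrE-like and in the E6.5 endoderm-like sums. The same held in the epiblast-like sums of E5.5 and E6.5 and in the streak-like sum. In the E4.5 epiblast-like and the E5.5 endoderm-like sums 17 had one. Presence of a count thus does not part the classes.

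The genes lie on 4 chromosomes of GRCm38, the build the authors aligned to. Cubn (ENSMUSG00000026726) spans chr2:13276338-13491813 on the minus strand with 14935 exon bases, and Lrp2 (ENSMUSG00000027070) spans chr2:69424340-69586065 on the minus strand with 16701 exon bases. Amn (ENSMUSG00000021278) is the shortest, at chr12:111271095-111276426 on the plus strand with 1843 exon bases. Dab2 (ENSMUSG00000022150) spans chr15:6299788-6440712 on the plus strand with 7342 exon bases, and Lrpap1 (ENSMUSG00000029103) spans chr5:35091501-35105766 on the minus strand with 4116 exon bases. A transcript antisense to Cubn, Gm13270, overlaps one of its exons and had 2265 counts in all cells against 252308 for Cubn. The sources used here do not say whether strand entered the counting, so reads of the overlap cannot be assigned.

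The stretch before each start site is shown because the 5 genes share the endoderm pattern described below and a reader can compare what lies upstream. The sequences are from RefSeq's table for GRCm38.p6, run 5′ to 3′ on the strand of the gene and stop at the first annotated exon. The Cubn stretch is chr2:13491877-13492126, the Amn stretch chr12:111270846-111271094, the Lrp2 stretch chr2:69586066-69586279 and the Dab2 stretch, at the upstream of its annotated starts, chr15:6299539-6299787. Capitals mark a match to a searched motif.
Cubn: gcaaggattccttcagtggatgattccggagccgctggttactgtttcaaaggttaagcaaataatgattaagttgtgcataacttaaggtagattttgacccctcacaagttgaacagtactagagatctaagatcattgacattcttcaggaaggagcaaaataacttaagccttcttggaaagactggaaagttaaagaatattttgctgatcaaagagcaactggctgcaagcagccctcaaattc
Amn: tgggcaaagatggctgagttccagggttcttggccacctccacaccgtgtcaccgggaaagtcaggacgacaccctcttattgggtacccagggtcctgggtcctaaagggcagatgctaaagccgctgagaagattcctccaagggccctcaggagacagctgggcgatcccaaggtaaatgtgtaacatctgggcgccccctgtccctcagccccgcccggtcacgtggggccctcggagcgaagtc
Lrp2: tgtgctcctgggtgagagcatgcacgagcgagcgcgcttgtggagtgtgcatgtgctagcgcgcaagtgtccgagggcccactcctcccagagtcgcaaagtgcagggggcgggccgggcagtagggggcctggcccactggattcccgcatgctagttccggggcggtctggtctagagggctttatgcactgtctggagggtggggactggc
Dab2: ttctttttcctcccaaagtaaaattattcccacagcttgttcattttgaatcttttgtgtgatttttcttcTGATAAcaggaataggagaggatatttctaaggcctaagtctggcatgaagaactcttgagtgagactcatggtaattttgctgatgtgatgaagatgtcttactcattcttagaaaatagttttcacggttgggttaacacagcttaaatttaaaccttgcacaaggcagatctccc
Both strands of the 250 bases before each start were searched for short words that endoderm factors are known to bind. For the GATA family the word AGATAA was searched, along with its variant TGATAA. For SOX factors the word was AACAAT. The Dab2 stretch holds TGATAA 179 bases before the start. No such letters were found in the windows of Cubn, Amn, Lrp2 and Lrpap1. Among 32851 promoter windows of the same length, either word of the first family occurs in 16.6% and AACAAT in 9.42%, so single matches of this kind are common. Base composition differed between the genes, with 39.6% G or C in the printed Cubn stretch and 36.8% in that of Dab2 against 66.4% in Lrp2 and 61.2% in Amn.

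All 5 genes were high in the PrE-like cells of every E4.5 embryo. Levels per embryo are CPM of the counts summed over at least 3 cells of a class, on library sizes scaled by the trimmed mean of M values (TMM). Cubn stood at 3277, 2036, 3124, 1784 and 4489 CPM in the PrE-like sums of embryos 1 to 5. In the epiblast-like sums of the same embryos it stood at 0, 0, 55.2, 5.44 and 726 CPM. The classes did not overlap, and embryo 5 was far above the other epiblast-like sums. Amn, the partner that anchors cubilin, stood at 1336, 1358, 687, 1811 and 2314 CPM in the PrE-like sums and at 10.4, 0, 69.7, 24.4 and 318 CPM in the epiblast-like sums. Lrp2 stood at 2408, 1898, 2263, 1465 and 3872 CPM against 64.0, 29.7, 224, 28.4 and 723 CPM. As for Cubn, embryo 5 was the highest in each class and the classes did not overlap.

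The adaptor and the chaperone showed the same split. Dab2 stood at 1669, 1183, 1729, 1785 and 3257 CPM in the PrE-like sums and at 16.3, 0, 151, 15.1 and 229 CPM in the epiblast-like sums. Lrpap1 stood at 3076, 2020, 1825, 2137 and 2509 CPM against 215, 162, 225, 174 and 327 CPM. Lrpap1 was present in every epiblast-like sum, with no sum near 0, and the classes did not overlap in either gene. The share of all genes whose classes part in this way is not given here, so the lack of overlap is a description.

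**Figure D1:**
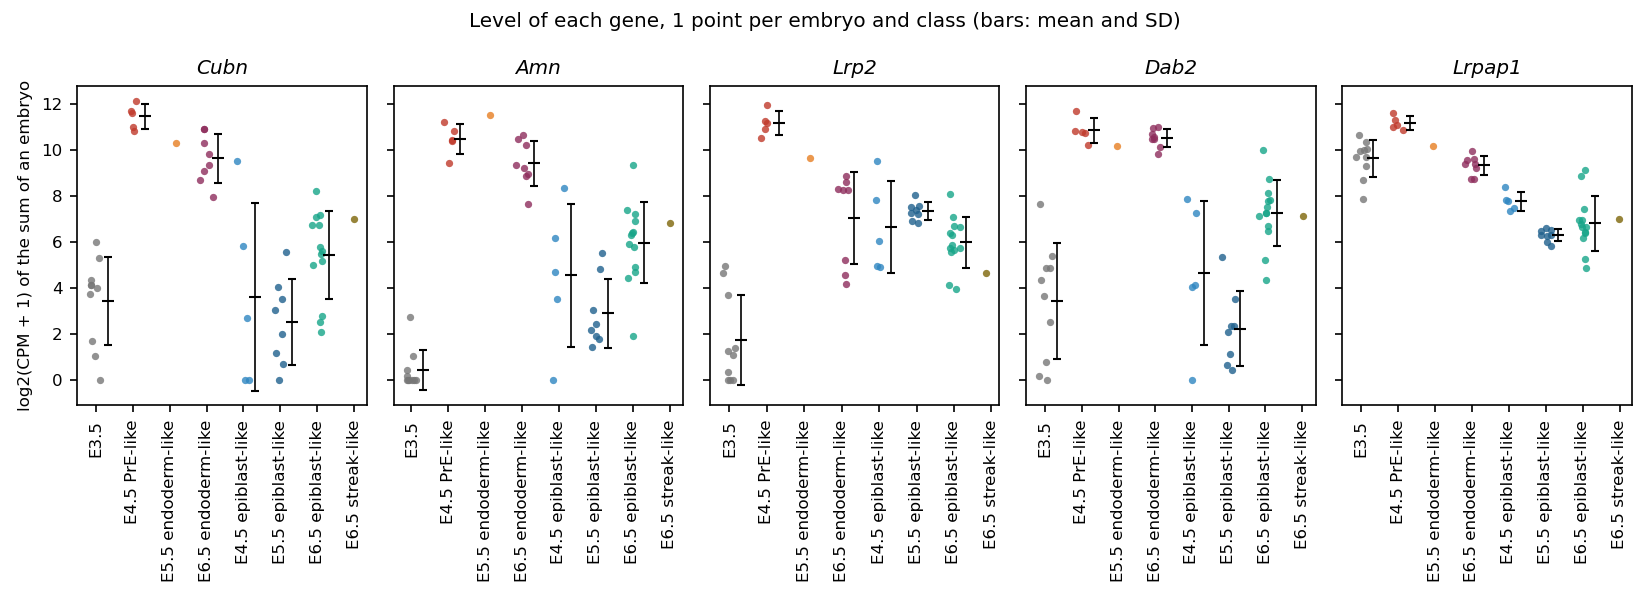
Level of each gene as log2(CPM + 1) on the y axis, 1 point per embryo and class, with classes along the x axis and bars for the mean and SD. The PrE-like points of all 5 genes lie above every epiblast-like point of E4.5, and Lrpap1 alone is high in every E3.5 sum (233 to 1589 CPM).

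In the test of PrE-like against epiblast-like sums, 5 of 5 genes passed as higher in PrE-like cells, where 3.01% of the 13618 genes tested passed in that direction. The limits were an adjusted p of at most 0.05 and an absolute log2 fold change over 2, from quasi-likelihood fits in edgeR with p-values adjusted over all genes tested. The log2 fold change was 4.54 (SE 1.20, edgeR adjusted p = 0.0135) for Dab2, 4.22 (SE 1.30, 0.0353) for Cubn, 4.14 (SE 1.10, 0.0137) for Amn, 3.47 (SE 0.98, 0.0202) for Lrp2 and 3.39 (SE 0.51, 1.13e-05) for Lrpap1. Lrpap1 had the smallest fold and the smallest SE of the 5. Leaving out embryo 1 or embryo 4 left 1 of 5 called, Lrpap1, leaving out embryo 2 or embryo 3 left 3, and without embryo 5 all 5 passed, with log2 fold changes of 3.24 to 7.37 over these fits. The count was 3 with single wells only and 0 when the classes came from Ward clustering, which moved 16 of the 76 PrE-like cells to the epiblast-like class. That Ward class was mixed, since 64.4% of its cells had more of the epiblast than of the endoderm markers, where the main clusters had to reach 90%.

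Epiblast-like cells with endoderm markers carried most of the epiblast-like counts of embryo 5. A marker score for each cell was taken as the mean log2(CPM + 1) of the endoderm markers less that of 17 epiblast markers. Of the 29 epiblast-like cells, 3 scored within 2 of 0, of which 1 was in embryo 3 (a double well, score -1.47) and 2 were in embryo 5 (single wells, scores -0.43 and -0.15). The 2 cells of embryo 5 had 2271 and 2288 CPM of Cubn and held 70.3% and 27.8% of the Cubn counts of that embryo's epiblast-like sum. They also held 55.6% and 35.7% of its Amn counts, 44.6% and 42.2% of its Lrp2 counts and 56.4% and 38.1% of its Dab2 counts. The mixed cell of embryo 3 held 93.8% of the Cubn counts and 60.9% of the Dab2 counts of its own embryo's sum. Without the 6 E4.5 cells of mixed markers (3 in each class), a choice made after seeing the data, the log2 fold change was 8.91 for Cubn, 6.34 for Amn, 5.05 for Lrp2, 6.35 for Dab2 and 3.83 for Lrpap1, and 5 of 5 were called. With the embryo as a block, which pairs the classes within each embryo, the log2 fold change of Cubn was 7.46 (edgeR adjusted p = 0.00599) and 5 of 5 were again called. The same sums fitted without the block gave 4 of 5, with Cubn at 4.26 (0.0502).

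**Figure D2:**
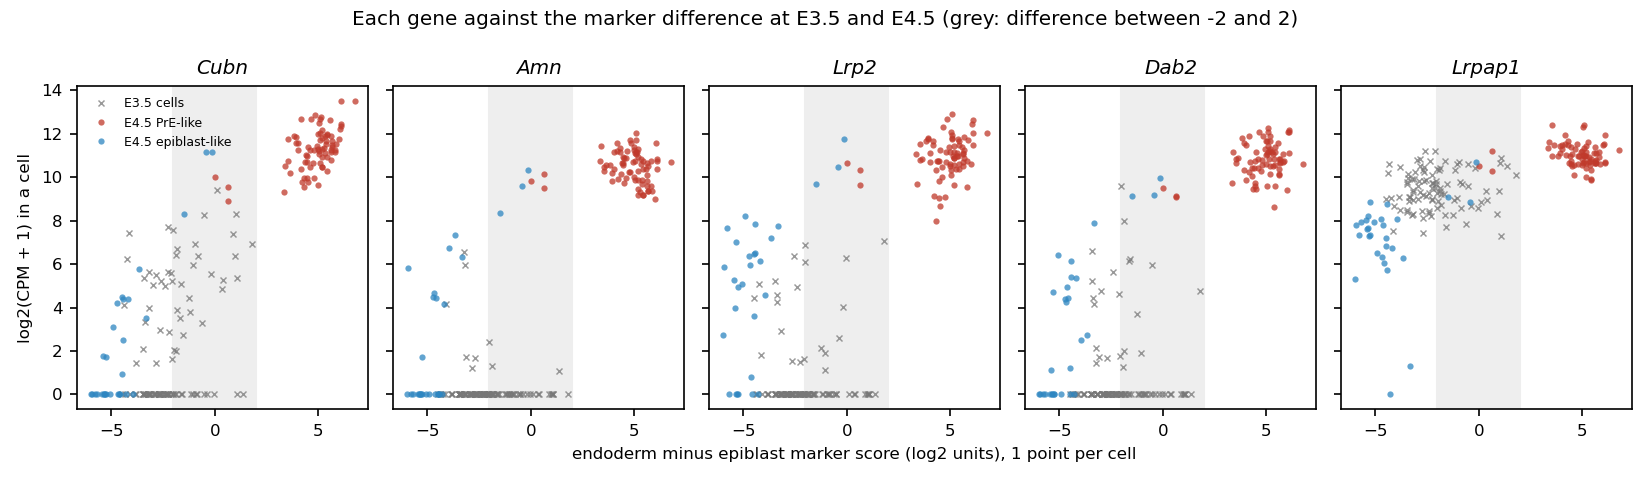
Each gene as log2(CPM + 1) in a cell (y axis) against the endoderm minus epiblast marker score in log2 units (x axis), 1 point per cell, for E3.5 cells, PrE-like and epiblast-like E4.5 cells. The grey band spans scores of -2 to 2, and the E4.5 epiblast-like cells with the highest levels of Cubn (2271 and 2288 CPM) lie inside it.

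Within the PrE-like class every one of the 76 cells had counts of all 5 genes. The median cell had 2476 CPM of Cubn, 2020 of Lrp2, 2014 of Lrpap1, 1797 of Dab2 and 1513 of Amn. The lowest cell still had 480 CPM of Cubn, 515 of Amn, 249 of Lrp2, 393 of Dab2 and 934 of Lrpap1. Wells seen under the microscope to hold more than one cell made up 30 of the 76 PrE-like wells, and their medians were 2062 CPM of Cubn against 2974 in single wells and 1854 of Lrp2 against 2205. For Lrpap1 the order was the other way, with 2113 CPM in double and 2001 in single wells. These differences were not tested. Of the 29 epiblast-like cells, 28 had counts of Lrpap1, 23 of Lrp2, 17 of Dab2, 14 of Cubn and 12 of Amn.

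Before lineage separation, 4 of the 5 genes were low. The E3.5 data give 10 sums, of which 9 are numbered embryos and 1 holds the 9 cells with no embryo number. Cubn ran from 0 to 62.6 CPM over the 10 sums (median 15.5), Dab2 from 0 to 199.95 (median 15.2), Lrp2 from 0 to 29.9 (median 1.24) and Amn from 0 to 5.503 (median 0). Amn had no count in 6 of the 10 sums, Lrp2 in 3, Cubn in 1 and Dab2 in 1. Lrpap1 was the exception, at 233 to 1589 CPM (median 898) with no sum at 0.

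In single E3.5 cells the 5 genes differed in how often they were found. Cubn was detected, with at least 1 count, in 46 of 99 cells, or 46.5% (exact 95% binomial interval 36.4% to 56.8%). Dab2 was detected in 22 cells (22.2%, 14.5% to 31.7%), Lrp2 in 21 (21.2%, 13.6% to 30.6%) and Amn in 9 (9.09%, 4.24% to 16.6%). Lrpap1 was detected in 99 of 99 cells. There are no molecular identifiers in these libraries, and the intervals cover the sampling of cells only. They treat the cells as independent and leave out the spread between embryos and plates.

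The E5.5 epiblast-like cells, in which endoderm genes should be low, were taken as the level of stray detection. Cubn had a count in 14 of 261 of these cells (5.36%), Amn in 36 (13.8%) and Dab2 in 38 (14.6%), at a median of 778739 total counts against 553935 at E3.5. The Cubn share at E3.5 was above this level, which is a description, since an interval over cells is no test between stages. It was not above the shares of the other epiblast-like classes, where Cubn had a count in 14 of 29 cells at E4.5 (48.3%, or 42.3% without the cells of mixed markers) and in 69.5% at E6.5. The Amn share at E3.5 was at or below it and is read as background, and the Dab2 interval at E3.5 included the E5.5 value. Thinned to 150000 counts per cell, the E3.5 shares were 45.5% for Cubn, 4.04% for Amn, 16.2% for Lrp2 and 17.2% for Dab2. The thinned E5.5 epiblast-like shares were 4.23%, 11.9%, 83.8% and 11.9%, with 1 cell left out. Lrp2 was detected in 228 of 261 E5.5 epiblast-like cells (87.4%) and Lrpap1 in 220 (84.3%).

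**Figure D3:**
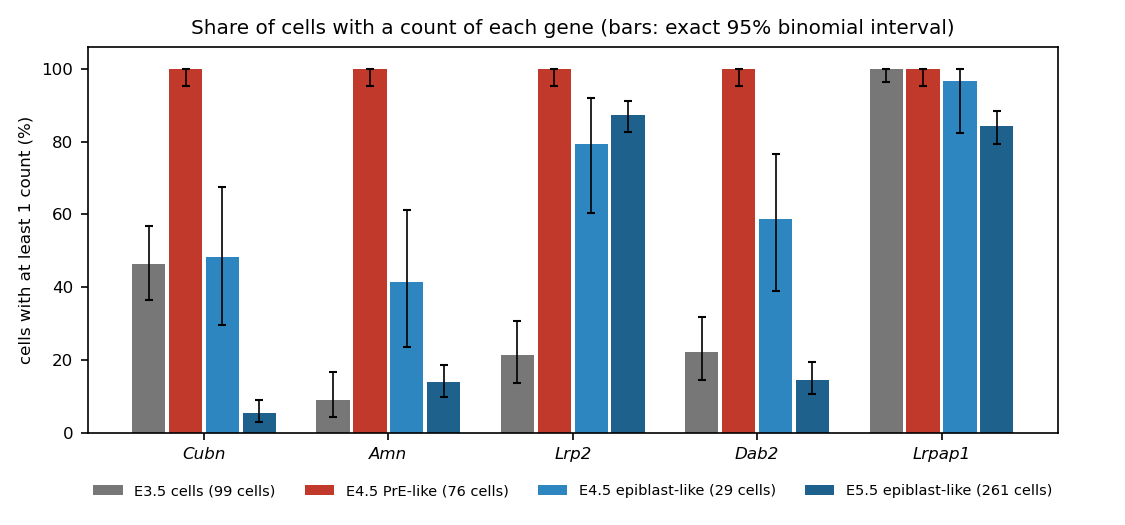
Share of cells (%, y axis) with at least 1 count of each gene (x axis) in E3.5, E4.5 PrE-like, E4.5 epiblast-like and E5.5 epiblast-like cells, with exact 95% binomial intervals as bars. Cubn is the gene whose E3.5 share (46.5%) stands furthest above that of E5.5 epiblast-like cells (5.36%), and Lrp2 (87.4%) and Lrpap1 (84.3%) have high shares there.

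Detection at E3.5 was mostly at low level. At 10 CPM or more, Cubn was found in 35 cells (35.4%), Dab2 in 14 (14.1%), Lrp2 in 12 (12.1%) and Amn in 3 (3.03%). At 100 CPM or more the numbers were 10, 2, 2 and 0 cells. The highest single E3.5 cell had 673 CPM of Cubn, 786 of Dab2, 132 of Lrp2 and 93.3 of Amn. Thus 1 cell reached the lowest PrE-like level of E4.5 for Cubn, 1 for Dab2 and 0 for Lrp2 and Amn. For Lrpap1, 32 of 99 E3.5 cells reached it, with a range of 155 to 2344 CPM and a median of 665.

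Detection of the 4 genes other than Lrpap1 was also counted jointly at E3.5. Joint counts depend on the shares of the single genes, and they were not tested against independent detection. Of the 99 cells, 30 had none of them, 45 had 1, 19 had 2, 5 had 3 and 0 had all 4. Cubn and Lrp2 were found together in 12 cells, Cubn and Dab2 in 9, and Cubn and its partner Amn in 3.

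The endoderm factor genes gave a further description of the Cubn cells. Cubn was detected in 23 of the 32 E3.5 cells with a count of Sox17, an endoderm transcription factor, and in 23 of the 67 without. Its mean level was 74.7 CPM in the former and 15.9 CPM in the latter. Lrp2 was detected in 9 of the 32 and 12 of the 67, Dab2 in 7 and 15, and Amn in 2 and 7. For Dab2 the mean level was lower in the cells with Sox17, at 4.87 CPM against 21.1 CPM. The cells without Sox17 include the highest Dab2 cell, at 786 CPM, so their mean rests on few cells. The shares of cells with Dab2 were alike. Gata4, another endoderm factor, was found in 25 cells, of which 18 had Cubn, against 28 of the 74 without Gata4. Gata6, which is broad in the inner cell mass before the lineages part, was found in 90 cells, of which 40 had Cubn. Of the 9 cells without Gata6, 6 had Cubn. These counts come from the same cells and depths and were not tested.

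The plates differed at E3.5. Cubn was detected in 36 of 74 cells on plate P9, in 4 of 16 on P8 and in 6 of the 9 unnumbered cells, at median depths of 481625.5, 903545.5 and 611703 counts. All 9 cells with Amn were on P9, and 5 of them in embryo 6, which also had 13 of its 28 cells with Cubn, 9 with Lrp2 and 7 with Dab2. With single wells only, Cubn was found in 39 of 90 cells, Amn in 9, Lrp2 in 20 and Dab2 in 21. The part of depth and plate in these shares was not tested beyond the thinning.

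Between E3.5 and the PrE-like cells of E4.5, 5 of 5 genes rose, where 12.3% of all genes tested passed as higher. In this and the later tests the limit on the absolute log2 fold change was 1. Amn had a log2 fold change of 10.55 (SE 1.08, edgeR adjusted p = 1.00e-10), Lrp2 of 8.44 (SE 0.90, 3.47e-10), Cubn of 7.30 (SE 1.10, 1.52e-06) and Dab2 of 5.86 (SE 0.95, 5.86e-06). Lrpap1, already present at E3.5, rose by 1.39 on the same scale (SE 0.39, 0.00789). The fold of Amn rests on an E3.5 group with 6 of 10 sums at 0 and depends on how zeros are handled. E3.5 and E4.5 cells share no plate, so stage and plate cannot be told apart. The E3.5 sums also held 293 to 1140 CPM of 10 trophoblast markers, against 54.0 to 130 CPM in the PrE-like and 281 to 457 CPM in the E4.5 epiblast-like sums. The part of these markers in the result was not tested.

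The epiblast-like cells of E4.5 differed from E3.5 in both directions. Lrpap1 fell by 2.002 on the log2 scale (SE 0.45, edgeR adjusted p = 0.000813), where 7.6% of all genes tested passed as lower. Amn (6.41, SE 0.95, 1.25e-06), Lrp2 (4.96, SE 0.80, 6.05e-06) and Cubn (3.08, SE 0.97, 0.0165) passed as higher, where 12.5% of all genes did, and Dab2 did not pass (1.32, SE 0.88, 0.305). The Cubn call rested on embryo 5, since the log2 fold change without it was -0.27 (adjusted p = 0.933) and without the cells of mixed markers -1.57 (0.249). Without those cells Amn stayed called at 4.24 (8.32e-05), Lrp2 at 3.40 (0.000425) and Lrpap1 at -2.43, while Dab2 stood at -0.46. Lrpap1 thus went up in one lineage and down in the other relative to E3.5, and the 2 changes were each past the test.

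**Figure D4:**
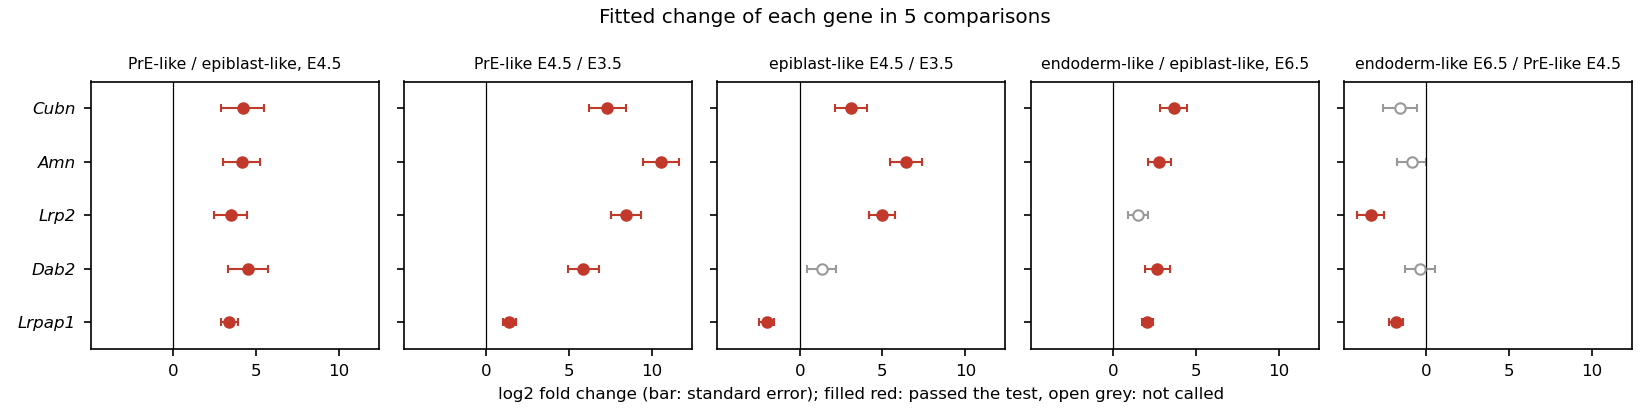
Fitted log2 fold change of each gene (x axis, with the standard error as a bar) in 5 comparisons of embryo sums, with genes on the y axis, filled red points for changes that passed the test and open grey points for the others. Lrpap1 is the gene that is lower in E4.5 epiblast-like cells than at E3.5 (-2.002), and Lrp2 is the one not called at E6.5 between endoderm and epiblast (1.52).

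At E5.5 the endoderm is represented by 1 embryo with enough cells, so there is no test. The 5 cells of embryo 7 labelled as visceral endoderm summed to 1253 CPM of Cubn, 2930 of Amn, 784 of Lrp2, 1156 of Dab2 and 1146 of Lrpap1. The 45 epiblast-like cells of the same embryo had no Cubn count among 46248218 counts, which allows up to 0.0649 CPM at 3 counts. They had 7.22 CPM of Amn, 110 of Lrp2, 3.97 of Dab2 and 75.9 of Lrpap1. Lrp2 was thus the gene with the smallest fold between endoderm and epiblast in that embryo.

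Over the 8 epiblast-like sums of E5.5, Lrp2 ran from 110 to 261 CPM with a median of 157. Cubn ran from 0 to 45.9 CPM (median 5.06), Amn from 1.70 to 44.5 (median 3.91), Dab2 from 0.318 to 39.1 (median 3.57) and Lrpap1 from 54.9 to 94.9 (median 76.7). Lrp2 and Lrpap1 were thus present in every one of these 8 sums, while Cubn, Amn and Dab2 were near 0 in most of them. At the level of cells, 147 of 261 had 100 CPM or more of Lrp2, and 64 of 261 reached the lowest PrE-like level of E4.5. For Cubn, Amn and Dab2 this held for 1 cell each.

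At E6.5 Dab2 ran from 891 to 2037 CPM over the 8 endoderm-like sums, with a median of 1445. Cubn ran from 243 to 1906 CPM (median 769), Amn from 197 to 1569 (median 611), Lrpap1 from 416 to 989 (median 665) and Lrp2 from 17.1 to 462 (median 303). The endoderm-like sums were split in Lrp2, with 3 embryos at 17.1 to 35.4 CPM and 5 at 302 to 462 CPM. In the 13 epiblast-like sums Cubn ran from 3.22 to 297 CPM (median 46.7), Amn from 2.76 to 649 (median 75.9), Dab2 from 18.9 to 1008 (median 152), Lrpap1 from 28.1 to 554 (median 99.7) and Lrp2 from 14.1 to 264 (median 57.3). The ranges of the 2 classes overlapped for each of the 5 genes.

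In the test, 4 of 5 genes passed as higher in endoderm-like than in epiblast-like cells at E6.5, where 5.71% of all genes tested did. The log2 fold change was 3.65 for Cubn (SE 0.83, edgeR adjusted p = 0.00216), 2.81 for Amn (SE 0.69, 0.00422), 2.68 for Dab2 (SE 0.73, 0.00973) and 2.07 for Lrpap1 (SE 0.33, 2.19e-05). Lrp2 did not pass, at 1.52 (SE 0.62, 0.0800), and was higher in endoderm-like cells in 5 of the 8 embryos with both classes. On plates P1 to P3 alone 1 of 5 genes passed, Lrpap1 (1.96), with 2.95 for Cubn, 2.45 for Amn, 2.37 for Dab2 and 1.06 for Lrp2. In the embryos without a plate name 1 of 5 passed, again Lrpap1 (2.59), with 4.23 for Cubn, 3.38 for Amn, 3.89 for Dab2 and 1.90 for Lrp2. With the embryo as a block 4 of 5 genes stayed called, while the count over all genes went from 1966 to 579, and to 444 when the same sums were fitted without the block.

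Endoderm transcripts were present in epiblast-like sums at E6.5 for other genes too. Epiblast-like levels as a percent of endoderm-like levels in the same 8 embryos had medians of 6.00% for Cubn, 13.4% for Amn, 13.8% for Dab2, 14.6% for Lrpap1 and 29.8% for Lrp2. For abundant secreted endoderm products the medians were 10.4% for Ttr, 10.3% for Apoa1, 10.8% for Apoe and 7.35% for Afp. By median, Cubn lay below these, Amn, Dab2 and Lrpap1 close above them and Lrp2 furthest above, while Rbp4, another secreted product, was near Cubn at 6.30%. The ranges over the embryos were wide and overlapped, at 0.730% to 55.2% for Cubn, 4.15% to 352% for Lrp2 and 1.42% to 25.3% for Ttr. At E4.5 the medians over 5 embryos were 0.290% for Cubn, 0.987% for Dab2, 1.28% for Amn, 2.69% for Lrp2 and 8.52% for Lrpap1. The part of endoderm RNA from elsewhere in the epiblast-like levels was not tested.

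From the PrE-like cells of E4.5 to the endoderm-like cells of E6.5, 2 of 5 genes fell, where 7.19% of all genes tested passed as lower. Lrp2 fell by 3.37 on the log2 scale (SE 0.81, edgeR adjusted p = 0.00376) and Lrpap1 by 1.81 (SE 0.41, 0.00228). The changes of Cubn (-1.60, SE 1.01, 0.325), Amn (-0.88, SE 0.86, 0.568) and Dab2 (-0.38, SE 0.93, 0.862) did not pass. With the embryos without a plate name alone, Lrpap1 stayed called (-1.95) and Lrp2 did not (-2.73, adjusted p = 0.135). Plate names P1 and P2 occur at both stages, and the labels do not say whether they name the same plates, so stage and plate cannot be told apart. Trophoblast markers summed to 8.72 to 95.6 CPM (median 70.0) in the E6.5 endoderm-like sums and to 54.0 to 130 CPM (median 123) in the PrE-like sums. Maternal decidua markers summed to 0 to 66.4 CPM and to 0 to 7.18 CPM. Of these lists, 3 of 10 and 3 of 4 genes passed as higher than in PrE-like cells, although the trophoblast sum had the lower median at E6.5.

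The lineage fold itself was compared between E6.5 and E4.5 with an interaction term. No gene of the 5 passed, where 3.3% of all genes tested did in either direction, and by both edgeR and DESeq2 1 of 5 had an unadjusted p under 0.05 and 0 of 5 were called. The difference of the log2 folds was -0.56 for Cubn, -1.34 for Amn, -1.95 for Lrp2, -1.86 for Dab2 and -1.32 for Lrpap1, with edgeR adjusted p of 0.217 to 0.943. Without the cells of mixed markers 2 of 5 passed, Cubn at -5.21 (0.0155) and Lrp2 at -3.56 (0.0411). The count thus depended on those cells.

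The endoderm-like cells of E6.5 fell into 2 clusters with different levels of the 5 genes. One, of 19 cells from 6 embryos, was led by Dkk1, Lhx1, Cer1, Flrt3 and Lefty1, of which Cer1, Dkk1 and Lefty1 mark the anterior visceral endoderm and Lhx1 also stands on the streak list. The other, of 21 cells from 7 embryos, was led by haemoglobin genes, Apoc2 and Afp, the last a secreted product of the visceral endoderm. Lrp2 had a median of 2.36 CPM in the Cer1-led cluster, with a count in 10 of 19 cells, and of 327 CPM in the other, with a count in 21 of 21. Cubn had medians of 162 and 1299 CPM, Amn of 229 and 995, and Dab2 of 955 and 1715. Lrpap1 had 728 and 606 CPM, so the chaperone was not lower in the Cer1-led cluster.

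**Figure D5:**
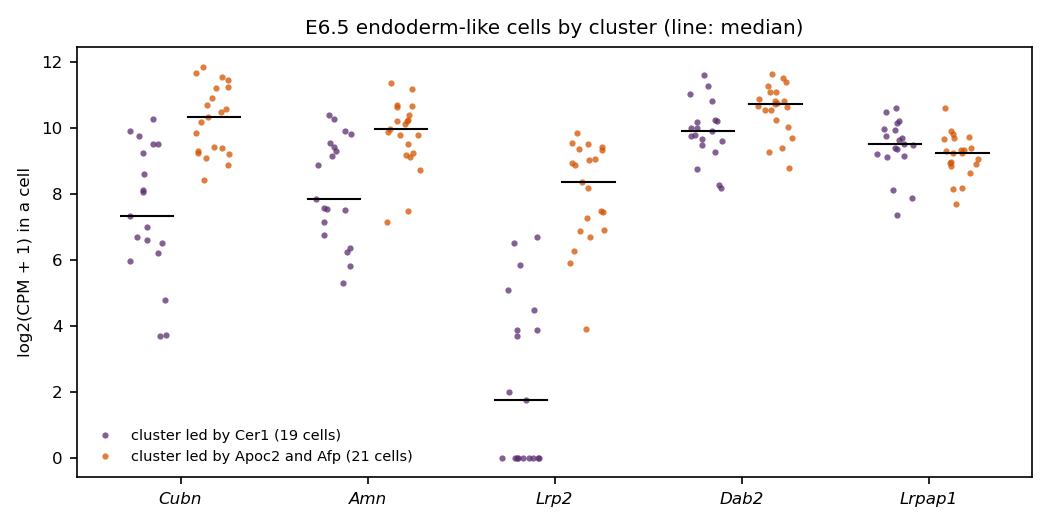
Each gene (x axis) as log2(CPM + 1) in a cell (y axis) in the 2 clusters of E6.5 endoderm-like cells, 1 point per cell with a line at the median. Lrp2 has a median of 2.36 CPM in the 19 cells of the Cer1-led cluster and of 327 CPM in the 21 cells of the other, while the Lrpap1 medians are 728 and 606 CPM.

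The clusters were built without the 5 genes, but the cells of a cluster share embryos, so the contrast is a description with no test. All 19 cells of the Cer1-led cluster were on plates P1 to P3, and the 14 endoderm-like cells without a plate name were all in the other. Among the 7 cells of the other cluster on P1 to P3, the medians were 524 CPM for Lrp2, 630 for Cubn, 886 for Amn, 2203 for Dab2 and 488 for Lrpap1, so on the same plates Lrp2, Cubn, Amn and Dab2 were again higher than in the Cer1-led cluster. Grouped by Cer1 alone, the 24 cells with a count had a Lrp2 median of 12.8 CPM and the 16 without had 233 CPM.

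Compared per kilobase of exon, Amn had the highest level of the 5 in endoderm. The length is that of all annotated exons of a gene merged. The transcript forms expressed and the recovery of long transcripts were not tested. In PrE-like sums the medians were 737 CPM per kb for Amn, 519 for Lrpap1, 235 for Dab2, 209 for Cubn and 135 for Lrp2. In the E5.5 visceral endoderm sum they were 1590, 278, 157, 83.9 and 47.0 in the same order of genes. In the E6.5 endoderm-like sums Amn stood at 331, Dab2 at 197, Lrpap1 at 161, Cubn at 51.5 and Lrp2 at 18.2 CPM per kb. The receptors of great length, Cubn and Lrp2, thus had the fewest reads per length at each endoderm stage. At E3.5 Lrpap1 stood at 218 CPM per kb and each of the other 4 genes at 2.07 or less, and in E5.5 epiblast-like sums Lrpap1 stood at 18.6 and Lrp2 at 9.38.

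Other genes of the uptake machinery are described by list, with counts past the test and medians of the log2 fold changes. At E4.5, of 22 genes of the clathrin coat and its adaptors 2 were higher in PrE-like cells and 0 lower, Myo6 (3.42), a motor that moves endocytic vesicles inward, and Synj1 (2.89), which helps shed the coat. Of 21 endosome and recycling genes 1 was higher, Snx2 (2.49), and of 15 lysosome genes 3, the proteases Ctsz (3.85) and Ctsl (2.69) and the hexosaminidase gene Hexa (2.59). None of 12 other LDL receptor family genes passed by edgeR, and over all genes 3.01% passed as higher and 2.99% as lower. The medians of the log2 fold changes were 0.73, 0.78, 0.86 and 1.11 for these 4 lists against 0.05 over all genes tested and 4.14 over the 5 genes.

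At E6.5, where the limit on the log2 fold change was 1 and not 2, 5.71% of all genes tested passed as higher and 8.73% as lower. Of 21 endosome genes 8 were higher in endoderm-like than in epiblast-like cells and 0 lower, among them Eea1 (3.74), Rab4a (2.31), Snx2 (2.06) and Vps26a (1.81). Of 15 lysosome genes 8 were higher and 1 lower, led by Ctsl (2.53), Hexa (2.38), Ctsb (2.26) and Ctsz (2.12). Of 22 clathrin genes 2 were higher, Myo6 (2.55) and the clathrin heavy chain gene Cltc (1.33), and 1 was lower, Fcho1 (-4.33). Of 12 other genes of the LDL receptor family 1 was higher, Lrp10 (2.74), and 2 were lower, among them Lrp8 (-4.38). The medians were 0.82 for the endosome and 1.29 for the lysosome list against -0.19 over all genes.

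Genes for proteins that cubilin and megalin take up formed the last list. Of 10 tested, 6 were higher in E6.5 endoderm-like than in E4.5 PrE-like cells and 0 lower, where 4.95% of all genes tested passed as higher. Their median log2 fold change was 4.30 against -0.06 over all genes. The largest were Rbp4 (14.95), the carrier of retinol, Apoa1 (11.49) and Apob (8.93), the main proteins of lipoproteins, and Trf (9.31), the iron carrier transferrin. Not every PrE-like sum had a count of Rbp4 and Apoa1, so the size of these folds depends on how zeros are handled. Their summed level was 8902 to 29564 CPM in E6.5 endoderm-like sums and 1090 to 3690 CPM in PrE-like sums. Over the same stages Lrp2 and Lrpap1 fell and none of the 5 genes was called higher. At E4.5 the same list went both ways between PrE-like and epiblast-like cells, with Apob (6.11) higher and Clu (-7.08), Trf (-6.80) and Lpl (-5.44) lower.

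Across the 49 sums of the fit, the genes whose log2(CPM + 1) was most like that of each of the 5 were ranked by Pearson's r among 8413 genes with a mean of at least 10 CPM. The nearest to Cubn were Lgmn (0.88), a lysosomal protease gene, and Col4a1 (0.87), a basement membrane collagen. Those nearest to Amn were Myo6 (0.91), Cobll1 (0.90) and Cotl1 (0.89), and those nearest to Dab2 were Pla2g12b (0.88), Pcbd1 (0.87) and Myo6 (0.87). For Lrp2 they were Reep5 (0.81), Amotl2 (0.80) and Camsap3 (0.80), and for Lrpap1 Cd63 (0.88), Snx2 (0.87) and Snx3 (0.83). Among the 5 themselves, Cubn, Amn and Dab2 correlated at 0.83 to 0.86, Cubn with Lrp2 at 0.55 and Lrpap1 with Lrp2 at 0.03. Sums of a stage or an embryo share plates and depth, so these values describe the pattern and carry no test.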

How the data were processed

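Raw counts per gene and cell were deposited by the authors, who per the labels and methods made libraries from full-length cDNA, aligned reads to GRCm38, kept alignments of sufficient mapping quality and counted them on genes without normalization. Their processing notes name Trim Galore 0.4.3 and HISAT2 2.0.5. Whether counting used strand is not given in the sources used here. Stage, embryo, plate and well type came from the labels. No column lacked a sample (0) and no 2 cells had identical counts. The 5 genes and all lists were chosen with earlier results of these data known.

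Genes found in 6% to 94% of cells, without the 90 held out, were clustered per stage by consensus k-means (20 starts), and clusters were named by marker lists. Counts were summed over at least 3 cells per embryo and class, giving 49 sums, and fitted together with edgeR 4.0.16 in R 4.3.3 (TMM scaling, filterByExpr, quasi-likelihood fits), with Benjamini-Hochberg adjusted p-values over the 13618 genes left. The limits, of the same size as the study's, were 0.05 on the adjusted p of a test against no change and an absolute log2 fold change over 2 between classes at E4.5 or over 1 elsewhere. Standard errors are the fold change divided by the square root of its F statistic. Embryos are the replicates. Both classes came from the same animals, so embryos pair the sums. Deviations from the class means correlated at 0.0289 to 0.139 within the 5 E4.5 embryos, where own embryo was highest in 5 of 5, and at 0.0424 to 0.171 within the 8 E6.5 embryos, where it was highest in 5 of 8. The code was tested on simulated data, where the median folds put in were recovered but not every changed gene was called.

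The text names the 5 genes, at most the 4 genes of each other list with the largest absolute log2 fold change among those that passed in a comparison, the 3 genes most like each of the 5, and Cer1, Sox17 and Gata6. Some genes that this rule names, and 1 motif searched, are not reported here. Flrt3, Apoc2, Afp, Gata4, Ttr, Apoe, Gm13270 and the other genes that lead clusters were named after their values were seen. Detection used at least 1 count, at least 10 or 100 CPM, and counts thinned to 150000 per cell, with exact 95% intervals and a floor of 3 counts. Alternatives were another normalization, DESeq2 1.42.0, no filter, fewer groups in the fit, single wells, other cell minimums, Ward clustering, embryo blocks and embryos left out. Leaving out cells of mixed markers and using embryos without a plate name were chosen after seeing the data.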

Additional observations from a re-analysis of the deposited data

Results flagged for a closer look

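In 25 groups of embryo values (5 genes in 5 groups of sums), 7 had an embryo whose gap to the next was beyond Dixon's limit, where chance gives about 1 in 20 groups. In the E4.5 epiblast-like class, embryo 5 stood apart in Cubn (726 CPM, next 55.2), Amn (318 CPM, next 69.7) and Lrp2 (723 CPM, next 224), and 2 of its cells with mixed markers held most of these counts. At E3.5, embryo 6 stood apart in Amn (5.503 CPM, next 1.005) and embryo 4 in Dab2 (199.95 CPM, next 40.9). In the E5.5 epiblast-like class, embryo 2 stood apart in Cubn (45.9 CPM, next 15.5) and Dab2 (39.1 CPM, next 10.3). A double well of that embryo with a marker score of 2.57, on the endoderm side, held 97.4% of these Cubn counts and 96.0% of the Dab2 counts, and it is left out where cells of mixed markers are. The check did not take in every group of sums, so the lack of a flag in the E6.5 epiblast-like class is no result about that class. There, embryo 6 of plate P2 was highest in Amn (649 CPM, next 163), Dab2 (1008 CPM, next 423) and Cubn (297 CPM, next 140). It was not highest in Lrpap1 (461 CPM) or Lrp2 (16.3 CPM). What set these embryos apart was not tested.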

How the results depend on the processing

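Among the fold changes of the 5 genes under alternatives, 424 kept direction and call, 32 lost the call, 6 gained it and 8 reversed. The cause was not tested unless stated. At E4.5 the classes gave 5 of 5 called, 3 with single wells only, 0 with Ward clustering and 1 to 5 when an embryo was left out. The Ward epiblast-like class of E4.5 was mixed, with 64.4% of its cells on the epiblast side of the marker score. At E6.5 the classes gave 4, and 1 on plates P1 to P3 alone and 1 in embryos without a plate name. E6.5 endoderm-like against PrE-like cells gave 2, and 1 with embryos without a plate name. The difference of folds gave 0, and 2 without cells of mixed markers. Values that reversed were, against E3.5 in epiblast-like cells, Cubn (3.08) at -0.27 without embryo 5 (up to 3.43 without another embryo) and -1.57 without mixed cells, Dab2 (1.32) at -0.46 without mixed cells and Lrpap1 (-2.002) at 0.24 with Ward clustering, and, for the difference of folds with Ward clustering, Cubn 1.12, Amn 2.22, Dab2 1.36 and Lrpap1 1.19. Lrp2 between classes at E6.5 (1.60, edgeR adjusted p = 0.0482) passed when only the groups compared were fitted, as did Cubn between E6.5 and E4.5 endoderm (-1.59, 0.0217). E3.5 detection at 10 CPM was 35.4% for Cubn, 3.03% for Amn, 12.1% for Lrp2 and 14.1% for Dab2, and thinned Amn was 4.04%, both stricter by construction.

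With the embryo as a replicate block, which pairs the classes, 5 of 5 genes were called at E4.5 and 4 of 5 at E6.5, the same counts as in the fit of all sums. The same sums without the block gave 4 of 5 at E4.5, where Cubn did not pass (4.26, edgeR adjusted p = 0.0502), and 4 of 5 at E6.5. All-gene counts under alternatives ran from 263 to 1223 (817 in the text's fit) at E4.5 and from 294 to 2493 (1966) at E6.5, where the block gave 579 and the same sums without it 444. They ran from 1610 to 3079 (2553) and 1357 to 3116 (2737) against E3.5, from 753 to 1873 (1653) between endoderm stages and from 132 to 770 (449) for the difference of folds. The all-gene median at E6.5 was -0.19 with TMM and -0.07 with relative log expression, and no direction of the 5 genes turned with it. Precision is limited by 5 embryos at E4.5, by 1 E5.5 embryo with endoderm and, for Amn at E3.5, by depth.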

Other observations

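The streak-like class of E6.5, which enters no comparison, comes from 23 cells of 1 embryo led by Mesp1, Lefty2 and Aplnr. Its sum had 126 CPM of Cubn, 110 of Amn, 23.9 of Lrp2, 136 of Dab2 and 127 of Lrpap1, within the range of the 13 epiblast-like sums for each of the 5 genes. The 18 endoderm markers summed to 2004 CPM there, against 369 to 4327 CPM in the epiblast-like sums.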
